A study of Mus musculus with 6 samples.

Results

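The genes of cholesterol and fatty acid synthesis were read in normal duodenum of Apc+/- mice (n = 3 arrays) and Apc+/-Atg7-/- mice (n = 3 arrays). The 31 members were fixed by gene symbol and found by matching that symbol to the annotation of the array, and all 31 had a row of their own among the 19938 named genes. Of the 31, 3 had several rows, and the brightest row on average was used for these. By role, 16 were sterol genes (15 enzymes and the sterol carrier Stard4), 10 were fatty acid genes and 5 were regulators of both branches.

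Both groups carried the Apc+/- genotype on a C57Bl6 background, and they differed by the Atg7-/- genotype. The labels do not give the Apc allele, how or in which cells Atg7 was deleted, the age, the sex, or the feeding state and hour at dissection. Whether each duodenum is a different animal is not stated either. The tests weigh differences only against the scatter of these 6 arrays, part of which may be technical. Signal is given as log2 values, where a difference of 1 is a doubling, and levels of different genes on an array cannot be compared with each other. Array medians lay between 6.43 and 6.56, and pairs of arrays correlated across rows at r = 0.989 to 0.994. Enterocyte markers averaged 11.3 to 11.8 per array (14 of 14 measured). Atg7 measured 7.05, 7.17 and 7.27 in Apc+/- replicates 1 to 3 and 6.46, 6.65 and 6.78 in Apc+/-Atg7-/- replicates 1 to 3, a difference of -0.53 (SE 0.11) with an adjusted p of 0.242 in limma. Xist stood at 4.58 in Apc+/-Atg7-/- replicate 1 and between 10.1 and 10.3 in the other 5 arrays. The Y-linked Eif2s3y stood at 8.44 in Apc+/-Atg7-/- replicate 1 and 3.10 to 3.46 elsewhere. That array thus came from a male, and from another animal than the other 5. Whether the other 5 came from different animals is not known.

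Cells make cholesterol from acetyl-CoA through mevalonate, squalene and lanosterol, and they make fatty acids by carboxylating acetyl-CoA and joining the units on fatty acid synthase. Transcription of both branches is driven by the sterol regulatory element binding proteins, SREBPs, which Srebf1 and Srebf2 encode. When membrane sterol is low, the escort Scap carries SREBPs from the endoplasmic reticulum to the Golgi, where they are cut and released to the nucleus. When sterol is plentiful, the Insig proteins hold Scap back. The enterocytes of the duodenum both absorb cholesterol and make it.

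SREBPs bind sterol regulatory elements close to the start of their target genes, often beside a CCAAT box, the site of NF-Y. RefSeq promoter windows on mouse build GRCm38.p6 were matched for 24 of the 31 members, and the 250 bases before the annotated start were searched on both strands. For the 4 sterol genes with the largest spread between arrays among those matched, the 150 bases before the start are shown 5′ to 3′ on the strand of the gene, since these genes moved together from array to array. They are Idi1 (chr13:8885456-8885605, plus strand), Hmgcs1 (chr13:119690201-119690350, plus strand), Cyp51 (chr5:4104698-4104847, minus strand) and Lss (chr10:76531455-76531604, plus strand). Capitals mark a match, on either strand, to the sterol element TCACNCCAC, to the letters of the CCAAT box or to the E-box CACGTG.
Idi1: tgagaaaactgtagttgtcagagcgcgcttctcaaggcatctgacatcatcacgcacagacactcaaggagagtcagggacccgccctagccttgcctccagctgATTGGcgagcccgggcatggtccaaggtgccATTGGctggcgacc
Hmgcs1: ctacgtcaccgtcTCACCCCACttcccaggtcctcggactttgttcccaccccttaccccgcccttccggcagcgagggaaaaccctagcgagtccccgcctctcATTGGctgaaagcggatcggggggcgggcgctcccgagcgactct
Cyp51: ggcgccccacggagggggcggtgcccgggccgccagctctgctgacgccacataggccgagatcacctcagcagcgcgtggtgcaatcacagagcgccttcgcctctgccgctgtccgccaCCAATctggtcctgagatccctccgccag
Lss: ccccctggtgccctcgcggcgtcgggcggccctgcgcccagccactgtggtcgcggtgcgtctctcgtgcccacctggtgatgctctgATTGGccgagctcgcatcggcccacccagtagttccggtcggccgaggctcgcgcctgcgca

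Each of the 4 printed stretches held a CCAAT box, and Hmgcs1 also held the sterol element, 137 to 129 bases before its start. No motif overlapped another in these 4 stretches. Over the 250 searched bases, 12 of 15 windows of sterol members held a CCAAT box, as did 33.8% of all 32851 windows in the table. Each of the 12 sterol genes with a window had it in at least 1 window. The sterol element was found in 1 of 15 sterol windows and in 1.05% of all windows. Only the exact letters TCACNCCAC were searched, so a window without a match may still hold a variant of the element. Of the windows of fatty acid members, 3 of 7 held a CCAAT box and 0 of 7 the sterol element, and of those of regulators, 5 of 10 and 0 of 10. The E-box was found in 5 of 32 member windows, among them Insig1 and Elovl5, and in 6.02% of all windows.

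No member differed between the genotypes past the test. With limma over all 19938 genes, 0 of 31 members passed an adjusted p of 0.05, where 22 genes (0.11%) did in all, 0.0702% of all genes higher and 0.0401% lower. In the same fit 1 member (Elovl5) had an unadjusted p under 0.05, as did 5.11% of all genes. In each alternative fit the count of members past an adjusted p of 0.05 was 0 as well. With limma's array weights, 7 members had an unadjusted p under 0.05, at a lowest adjusted p of 0.472, and the sterol median was 0.26. The share of all genes under that p was not counted in the weighted fit, so the 7 cannot be set against it. These weights were 0.42, 0.90 and 1.49 for Apc+/- replicates 1, 2 and 3, so the arrays of this genotype did not count equally. In the limma fit without weights, the lowest adjusted p among the members was 0.933. Of the 31, 25 were higher in Apc+/-Atg7-/- duodenum without passing, where 43.2% of all genes were. Sterol members were higher in 15 of 16 cases with a median difference of 0.12, and fatty acid members in 9 of 10 with a median of 0.15, beside a median of -0.018 over all genes. Regulators had a median of -0.013.

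Marker lists of cell types were also shifted between the genotypes, and their part in the shift of the members was not tested. Crypt and proliferation markers were higher in Apc+/-Atg7-/- duodenum in 10 of 11 cases (median 0.26), where 43.2% of all genes were. For 5 of the 11 the genotypes did not overlap, with Apc+/-Atg7-/- higher, as for 4.81% of all genes, but 0 passed an adjusted p of 0.05. Their mean level was 8.41, 8.14 and 8.33 in Apc+/- replicates 1 to 3 and 8.42, 8.61 and 8.52 in Apc+/-Atg7-/- replicates 1 to 3. Enterocyte markers were lower in 12 of 14 cases (median -0.13), smooth muscle markers in 9 of 10 (median -0.33) and immune markers in 11 of 11 (median -0.11), and 0 of each list passed. Of all 19938 genes, 11327 were lower.

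The size of the sterol and fatty acid medians depended on single arrays, and only the sterol median changed sign, without Apc+/- replicate 3. Without Apc+/- replicate 3, 6 of 16 sterol members were higher at a median of -0.035, and 6 of 10 fatty acid members at 0.051. Without Apc+/- replicate 1 the sterol median was 0.29, and 11 of the 31 members had an unadjusted p under 0.05 (12.0% of all genes did), with a lowest adjusted p of 0.242. The sterol median was 0.22 without Apc+/-Atg7-/- replicate 1, the male, and 0.078 and 0.081 without replicates 2 and 3. The fatty acid median was 0.23 without the male array.

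**Figure D1:**
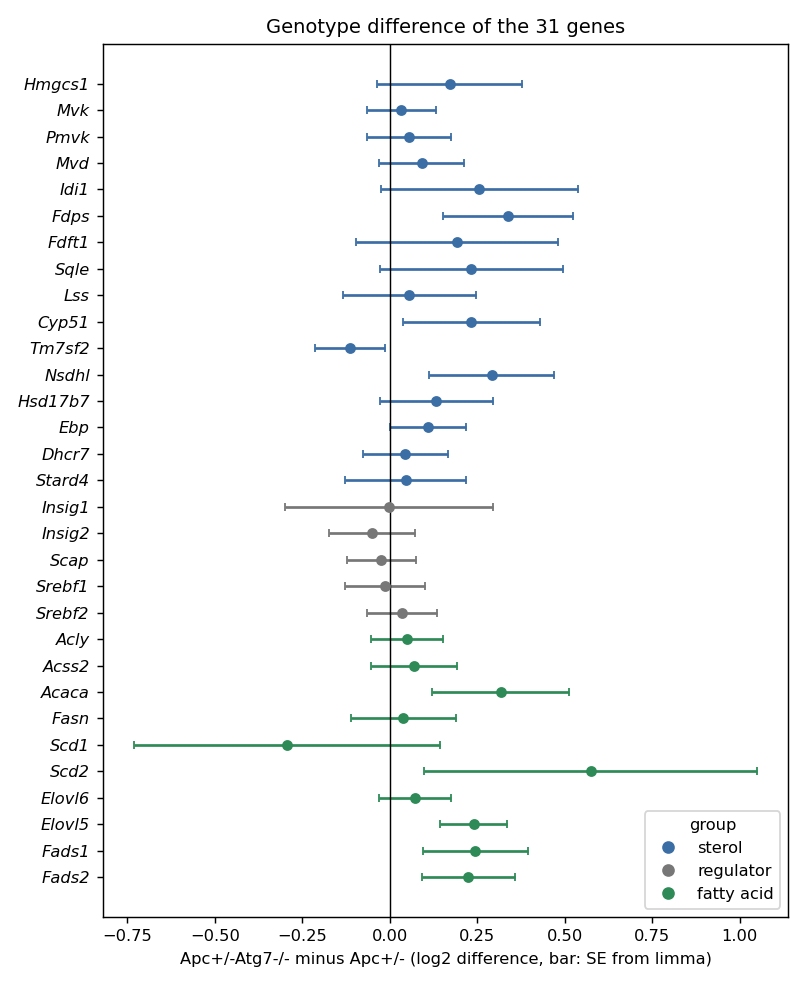
Difference between the genotypes for each of the 31 genes (horizontal axis, Apc+/-Atg7-/- minus Apc+/-, log2), with bars giving limma's standard error and colours the sterol, regulator and fatty acid groups (n = 3 arrays per genotype). Of the 31 points, 25 lie above 0, none passed an adjusted p of 0.05, and the widest bars belong to Scd2 and Scd1.

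Within each genotype the sterol genes moved together from array to array. Averaged over the 16 sterol members, Apc+/- replicates 1, 2 and 3 deviated from the mean of their genotype by 0.37, -0.043 and -0.32, and Apc+/-Atg7-/- replicates 1, 2 and 3 by -0.17, 0.077 and 0.095. Apc+/- replicate 1 was the highest of its genotype for 14 of 16 sterol members, as it was for 27.6% of all genes. Apc+/- replicate 3 was the lowest for 14 of 16 (26.1% of all genes), and the male Apc+/-Atg7-/- array was the lowest of its genotype for 15 of 16 (38.5% of all genes). The order replicate 1 over 2 over 3 held in Apc+/- for 12 of 16 sterol members and for 14.3% of all genes.

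**Figure D2:**
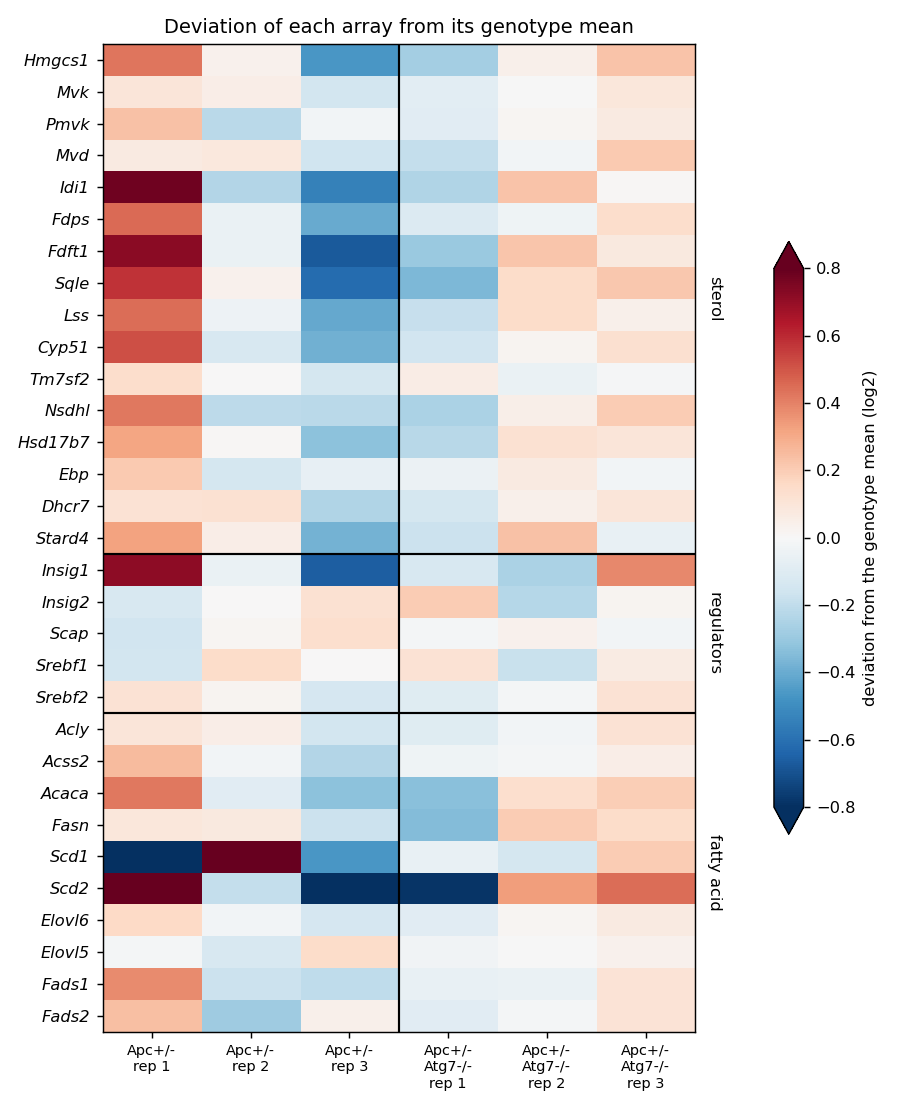
Deviation of each array (columns, 3 per genotype) from the mean of its genotype (colour, log2, red above and blue below) for the 31 genes (rows, in the sterol, regulator and fatty acid groups). The sterol rows share red in Apc+/- replicate 1, where the mean deviation was 0.37, and blue in Apc+/- replicate 3, at -0.32, while Insig2, Scap, Srebf1, Scd1 and Elovl5 are among the rows that differ.

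Sterol members spread more between arrays of 1 genotype than most genes did. The pooled within-genotype SD had a median of 0.30 over the sterol members and 0.127 over all genes. Of the 16, 10 lay above the 90th percentile of all genes, and their median percentile was 96.7. That median was 86.9 without Apc+/- replicate 1 or without Apc+/- replicate 3. The Apc+/- arrays spread more than the Apc+/-Atg7-/- arrays for 15 of 16 sterol members (62.2% of all genes). For 10 of 16 the 3 Apc+/-Atg7-/- arrays all lay inside the range of the Apc+/- arrays (28.6% of all genes). Some other lists spread as widely, with median SD percentiles of 97.9 for smooth muscle markers and 96.3 for clock genes, beside 68.2 for enterocyte markers.

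**Figure D3:**
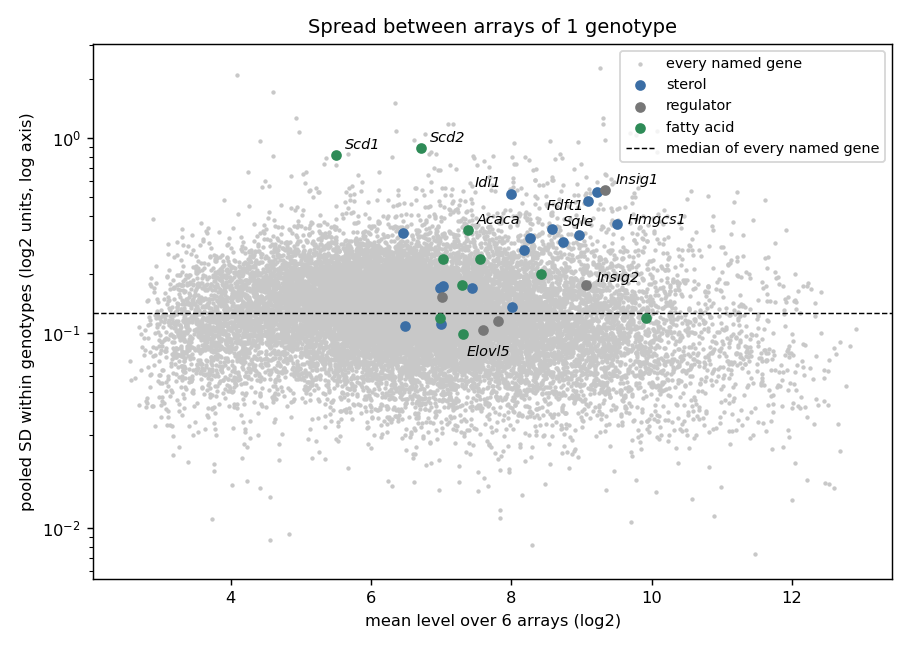
Pooled SD within genotypes (vertical log axis, log2 units) against the mean level over 6 arrays (horizontal axis, log2) for every named gene (grey) and the members (colours). The dashed line is the median SD of every named gene, 0.127. Scd2 and Scd1 lie at 0.89 and 0.82, and Insig1, Fdft1, Idi1 and Sqle lie between 0.48 and 0.54.

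Among the enzymes of the mevalonate steps, Hmgcs1, which makes HMG-CoA, measured 9.85, 9.46 and 8.96 in Apc+/- replicates 1 to 3 and 9.32, 9.64 and 9.82 in Apc+/-Atg7-/- replicates 1 to 3. Idi1, which isomerises the isoprenoid unit, measured 8.64, 7.63 and 7.33 in Apc+/- and 7.88, 8.35 and 8.13 in Apc+/-Atg7-/- arrays. Fdps, which joins the units to farnesyl pyrophosphate, measured 9.25, 8.75 and 8.39 in Apc+/- and 9.03, 9.10 and 9.27 in Apc+/-Atg7-/- arrays. In all 3 genes Apc+/- replicate 1 was high and replicate 3 was the lowest of the 6 arrays, and the genotypes overlapped. Idi1 differed 2.49-fold between the highest and lowest Apc+/- arrays, against 1.38-fold among the Apc+/-Atg7-/- arrays. Fdps had the smallest p of the sterol members, with a genotype difference of 0.34 (SE 0.19, limma adjusted p = 0.95). Its difference was 0.57 without Apc+/- replicate 1 and 0.14 without replicate 3. The kinases Mvk and Pmvk and the decarboxylase Mvd varied less, with SDs of 0.11, 0.17 and 0.17.

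The enzymes of squalene and lanosterol had the largest median fold between Apc+/- arrays of the sterol roles, 2.28. Fdft1, squalene synthase, measured 9.85, 9.08 and 8.46 in Apc+/- replicates 1 to 3 and 9.02, 9.54 and 9.40 in Apc+/-Atg7-/- replicates 1 to 3. Sqle, the squalene epoxidase, measured 9.55, 9.01 and 8.36 in Apc+/- and 8.85, 9.35 and 9.42 in Apc+/-Atg7-/- arrays. Lss, lanosterol synthase, measured 6.89, 6.40 and 6.03 in Apc+/- and 6.31, 6.64 and 6.53 in Apc+/-Atg7-/- arrays. All 3 were highest of the 6 arrays in Apc+/- replicate 1 and lowest in Apc+/- replicate 3, and the male array was the lowest of the Apc+/-Atg7-/- arrays. The fold between the extreme Apc+/- arrays was 2.62 for Fdft1, 2.28 for Sqle and 1.81 for Lss. The mean genotype differences, 0.19 (SE 0.29), 0.23 (SE 0.26) and 0.056 (SE 0.19) for Fdft1, Sqle and Lss, were smaller than the spread between arrays, and without Apc+/- replicate 3 they were -0.14, -0.073 and -0.15. The second rows of Fdft1 and Idi1 gave the same order of arrays in both genotypes as the rows used.

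**Figure D4:**
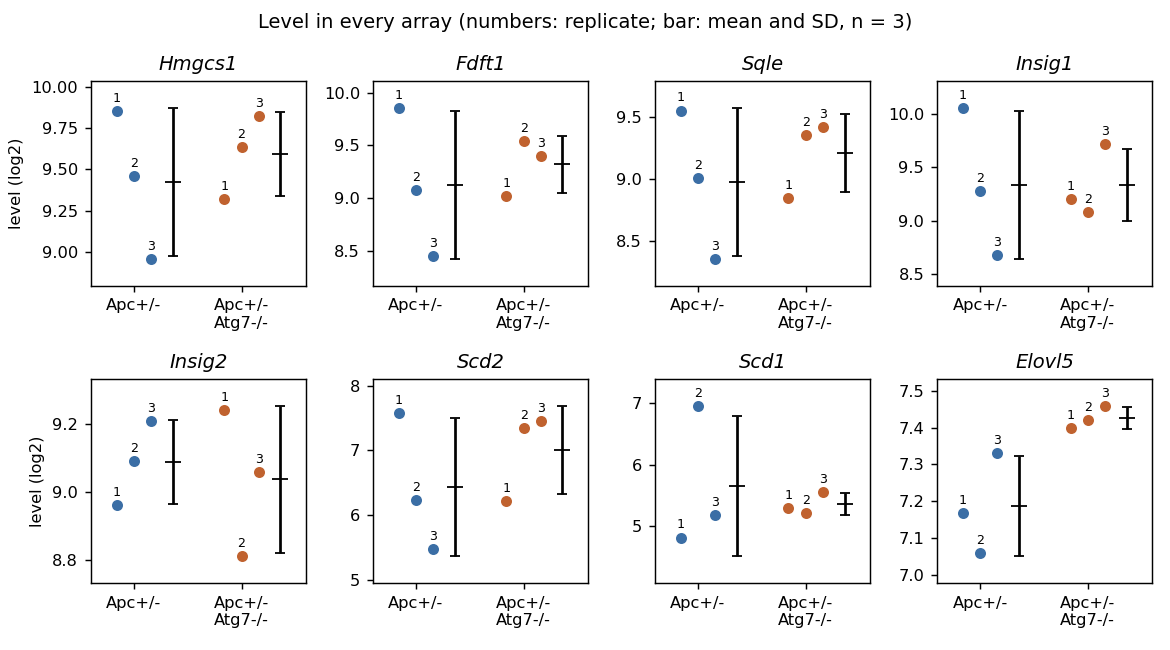
Level of 8 of the genes in every array (vertical axis, log2, a separate scale for each gene), with Apc+/- in blue, Apc+/-Atg7-/- in orange, the replicate number above each point, and the mean with its SD beside them (n = 3). Hmgcs1, Fdft1, Sqle, Insig1 and Scd2 share a high Apc+/- replicate 1 and a low Apc+/- replicate 3, Scd1 is high in Apc+/- replicate 2 at 6.96, and Elovl5 is the 1 gene whose genotypes do not overlap.

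After lanosterol, Cyp51, the lanosterol demethylase, measured 8.97, 8.33 and 8.08 in Apc+/- and 8.54, 8.72 and 8.82 in Apc+/-Atg7-/- replicates 1 to 3. Nsdhl, which acts in the removal of the methyl groups, measured 8.54, 7.91 and 7.90 in Apc+/- and 8.15, 8.45 and 8.61 in Apc+/-Atg7-/- arrays. In both genes Apc+/- replicate 1 stood above the other Apc+/- arrays. The Apc+/-Atg7-/- arrays lay in that gap for Cyp51 in 3 of 3 cases and for Nsdhl in 2 of 3. Nsdhl differed by 0.29 (SE 0.18, limma adjusted p = 0.961). The keto-reductase Hsd17b7 and the carrier Stard4 followed the same Apc+/- order with SDs of 0.27 and 0.29. The isomerase Ebp and the reductases Dhcr7 and Tm7sf2 had SDs of 0.14, 0.17 and 0.11. Tm7sf2 was the 1 sterol member that was lower in Apc+/-Atg7-/- arrays, at -0.11 (SE 0.099).

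Of the regulators, Insig1, which SREBPs themselves induce, varied most. It measured 10.05, 9.28 and 8.68 in Apc+/- replicates 1 to 3 and 9.21, 9.08 and 9.72 in Apc+/-Atg7-/- replicates 1 to 3. Insig1 thus followed the sterol enzymes in Apc+/- duodenum, at 2.59-fold between the extremes, but among Apc+/-Atg7-/- arrays replicate 2 was the lowest, where the sterol enzymes were not low. The genotype difference of Insig1 was -0.0025 (SE 0.30). Insig2, its relative that holds Scap in the same way, measured 8.96, 9.09 and 9.21 in Apc+/- and 9.24, 8.81 and 9.06 in Apc+/-Atg7-/- arrays. Insig2 was therefore lowest in the Apc+/- array where the sterol enzymes were highest, and highest in the male array where they were low.

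The SREBP genes and their escort had SDs of 0.10 to 0.15, around the median of all genes. Srebf2, which encodes the SREBP that mainly serves cholesterol synthesis, measured 7.91, 7.81 and 7.66 in Apc+/- and 7.73, 7.81 and 7.94 in Apc+/-Atg7-/- arrays. Srebf1, whose product mainly serves fatty acid synthesis, measured 6.86, 7.16 and 7.02 in Apc+/- and 7.11, 6.82 and 7.06 in Apc+/-Atg7-/- arrays. Scap measured 7.46, 7.62 and 7.74 in Apc+/- and 7.57, 7.62 and 7.56 in Apc+/-Atg7-/- arrays. Srebf2 was highest in Apc+/- replicate 1 and lowest in replicate 3, like most sterol enzymes, at a fold of 1.19, while Scap had the opposite order in Apc+/- and Srebf1 had neither order. The genotype differences of the 3 lay between -0.024 and 0.035 (SE 0.098 to 0.11), with limma adjusted p of 0.999 for each.

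Most fatty acid members shared the array pattern of the sterol genes, and Scd1 and Elovl5 did not. Fads2 was lowest in Apc+/- replicate 2 rather than in replicate 3. Apc+/- replicate 1 was the highest of its genotype for 8 of 10 and replicate 3 the lowest for 7 of 10, and the male array was the lowest of its genotype for 9 of 10. Without Scd1, the mean deviations of Apc+/- replicates 1, 2 and 3 were 0.31, -0.087 and -0.22, and those of Apc+/-Atg7-/- replicates 1, 2 and 3 were -0.21, 0.065 and 0.14. The median SD of the 10 genes was 0.22. Acaca, the acetyl-CoA carboxylase that commits carbon to fatty acids, measured 7.64, 7.13 and 6.89 in Apc+/- and 7.20, 7.67 and 7.73 in Apc+/-Atg7-/- arrays. Its second row had Apc+/- replicate 3 as the lowest array as well, at 5.42. Fasn, the synthase itself, had an SD of 0.24, and in it the male array was the lowest of all 6 at 6.70. Acly and Acss2, which supply acetyl-CoA, had SDs of 0.12 and 0.18.

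The stearoyl-CoA desaturases Scd1 and Scd2, which put the first double bond into saturated chains, varied most of all members and in different arrays. Scd2 measured 7.58, 6.24 and 5.47 in Apc+/- replicates 1 to 3 and 6.22, 7.34 and 7.45 in Apc+/-Atg7-/- replicates 1 to 3. Scd1 measured 4.81, 6.96 and 5.18 in Apc+/- and 5.30, 5.21 and 5.56 in Apc+/-Atg7-/- arrays. Scd2 had the sterol order in both genotypes, with 4.30-fold between the extreme Apc+/- arrays, whereas Scd1 was high in Apc+/- replicate 2 alone. No detection calls were used, so whether the low Scd1 values lay above background is not known, and no fold between arrays is given for it. The genotype difference was 0.57 (SE 0.48) for Scd2 and -0.29 (SE 0.44) for Scd1, which was 0.36 without Apc+/- replicate 2. Scd1 and Scd2 are close paralogs, and how far the row of each reads the other was not tested.

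Other genes were high in the same array as Scd1. Me1, malic enzyme, which supplies NADPH for fatty acid synthesis, measured 9.47 in Apc+/- replicate 2 and between 7.55 and 8.42 in the other 5 arrays. Thrsp, a lipogenic nuclear protein, measured 7.45 there and between 6.76 and 7.03 elsewhere. Among adipocyte markers (9 of 10 measured), the mean level was 6.73 in Apc+/- replicate 2, 6.50 and 6.58 in the other Apc+/- arrays and 6.47 to 6.48 in Apc+/-Atg7-/- arrays. Of these 9 markers, 6 were highest of the Apc+/- arrays in replicate 2. Smooth muscle markers were highest there in 9 of 10 cases, and 39.5% of all genes were. The B cell marker Ms4a1, named after its values were seen, measured 6.45 in Apc+/- replicate 2 and 4.74 to 4.85 in the other 5. Cd79a, also a B cell marker, measured 6.72, 6.68 and 6.44 in Apc+/- replicates 1 to 3 and did not share this peak. Of the 11 measured immune markers, Apc+/- replicate 2 was the highest of its genotype for 3 and the lowest for 5. The part of these other cells in the Scd1 value was not tested.

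Of the genes that build polyunsaturated chains, Elovl5 had the smallest p of all members. Elovl5, the elongase of polyunsaturated chains, measured 7.17, 7.06 and 7.33 in Apc+/- and 7.40, 7.42 and 7.46 in Apc+/-Atg7-/- arrays. It was the 1 of 31 members whose genotypes did not overlap, with Apc+/-Atg7-/- higher, as was so for 4.81% of all genes, and 0 of 31 lay apart the other way, as 5.23% of all genes did. Its difference of 0.24 (SE 0.096) had a limma adjusted p of 0.933, and it lay between 0.18 and 0.31 with any 1 array left out. Fads1 measured 7.82, 7.27 and 7.23 in Apc+/- and 7.62, 7.63 and 7.79 in Apc+/-Atg7-/- arrays. Fads2 measured 8.55, 8.03 and 8.35 in Apc+/- and 8.44, 8.52 and 8.64 in Apc+/-Atg7-/- arrays. In both of these desaturases, Apc+/- replicate 1 reached the level of the Apc+/-Atg7-/- arrays while the other Apc+/- arrays lay lower, and the differences were 0.24 (SE 0.15) and 0.22 (SE 0.13). Elovl6, which lengthens saturated chains, had an SD of 0.12.

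Genes of neighbouring steps outside the members did not differ past the test. Of 8 measured genes of the remaining sterol synthesis and uptake list (14 listed), 0 passed in either direction. Apc+/- replicate 1 was the highest of its genotype for 8 of 8 (27.6% of all genes). The lowest was Apc+/- replicate 3 for 4 of 8 (26.1% of all genes) and Apc+/- replicate 2 for the other 4 (24.7%). In Apc+/- duodenum the list thus shared only the high replicate 1 with the sterol members. In Apc+/-Atg7-/- duodenum the list did not share the sterol pattern, and the male array was the highest for 4 of 8 and the lowest for the other 4. Msmo1, the methylsterol oxidase that acts beside Nsdhl, measured 9.58, 9.03 and 8.33 in Apc+/- and 8.80, 9.33 and 9.31 in Apc+/-Atg7-/- arrays, with an SD at percentile 99.3 of all genes. Npc1l1, the intestinal cholesterol importer, differed by -0.26 (SE 0.14). Of 6 measured genes of SREBP processing and sterol-regulated degradation, 0 passed, and the site-1 protease gene Mbtps1 differed by 0.16 (SE 0.11). Of 7 measured LXR targets and esterification genes, 0 passed and 6 were lower, as were 11327 of all 19938 genes. The lower ones included the sterol exporter Abca1 (-0.28, SE 0.095, limma adjusted p = 0.841) and the receptor gene Nr1h3 (-0.31, SE 0.10, limma adjusted p = 0.813). Abcg8 was the 1 that was higher (0.18, SE 0.16). Of 15 other fatty acid genes 0 passed, and in Apc+/- duodenum they did not share the array pattern of the fatty acid members. For 5 of the 15, Apc+/- replicate 1 was the highest of its genotype (27.6% of all genes), and for 9 the lowest (49.2%). The male array was the lowest of its genotype for 9 of the 15 (38.5% of all genes).

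Markers of cell types also varied between the arrays, and their part in the pattern was not tested. Enterocyte markers (14 of 14 measured) deviated by 0.12, 0.057 and -0.17 in Apc+/- replicates 1 to 3 and by 0.11, 0.095 and -0.21 in Apc+/-Atg7-/- replicates 1 to 3. Smooth muscle markers (10 of 10 measured) deviated by -0.31, 0.23 and 0.076 in Apc+/- and by 0.11, -0.42 and 0.32 in Apc+/-Atg7-/- arrays. Crypt and proliferation markers (11 of 12 measured) deviated by 0.12, -0.15 and 0.037 in Apc+/- and by -0.094, 0.090 and 0.0044 in Apc+/-Atg7-/- arrays. The enterocyte order matched the sterol order in Apc+/- but not in Apc+/-Atg7-/- duodenum, where the male array was high for enterocyte and low for sterol genes. The enterocyte mean level ran from 11.6 to 11.8 in Apc+/- and from 11.3 to 11.6 in Apc+/-Atg7-/- arrays, and that of smooth muscle from 8.11 to 8.65 and from 7.70 to 8.44. In whole tissue, fewer cells of a type and less RNA per cell cannot be told apart.

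Clock genes also varied between arrays of 1 genotype, and 0 of the 11 measured (12 listed) passed for genotype. Apc+/- replicate 3 was the lowest of its genotype for 8 of the 11 (26.1% of all genes). The male array was the lowest of its genotype for 7 of the 11 (38.5% of all genes). Apc+/-Atg7-/- replicate 2 was the highest of its genotype for 9 of the 11 (32.0% of all genes). For sterol members, replicate 3 of that genotype was the highest for 9 of 16. The 3 clock genes with the highest level did not share 1 order. Nr1d1 measured 8.93, 9.69 and 9.60 in Apc+/- replicates 1 to 3 and was lowest in replicate 1. Clock measured 9.10, 9.25 and 9.20 and was lowest there too, while Nr1d2 measured 9.12, 9.04 and 8.89 and was highest there. Per3, Dbp and Arntl were chosen after their values were seen, because they varied along with the sterol genes. Per3, a repressor-side clock gene, measured 7.34, 6.81 and 6.14 in Apc+/- and 6.22, 7.17 and 6.72 in Apc+/-Atg7-/- replicates 1 to 3. Arntl, which encodes the activator BMAL1 and peaks at another hour than Per3, measured 7.14, 7.30 and 8.26 in Apc+/- and 8.35, 7.41 and 7.77 in Apc+/-Atg7-/- arrays. Arntl was thus highest, and Per3 lowest, in Apc+/- replicate 3 and in the male Apc+/-Atg7-/- array, the arrays with the lowest sterol mean of their genotypes. Dbp, an output gene of the clock, measured 7.93, 7.77 and 7.37 in Apc+/- and 7.29, 7.70 and 7.34 in Apc+/-Atg7-/- arrays. The 11 clock genes deviated on average by 0.078, 0.050 and -0.13 in Apc+/- and by -0.14, 0.16 and -0.019 in Apc+/-Atg7-/- arrays. The hour of dissection was not tested as a source of these values, and neither was feeding, for which PPAR alpha and fasting genes (8 of 9 measured) deviated by -0.11, 0.15 and -0.035 in Apc+/- and by 0.25, -0.083 and -0.17 in Apc+/-Atg7-/- arrays.

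**Figure D5:**
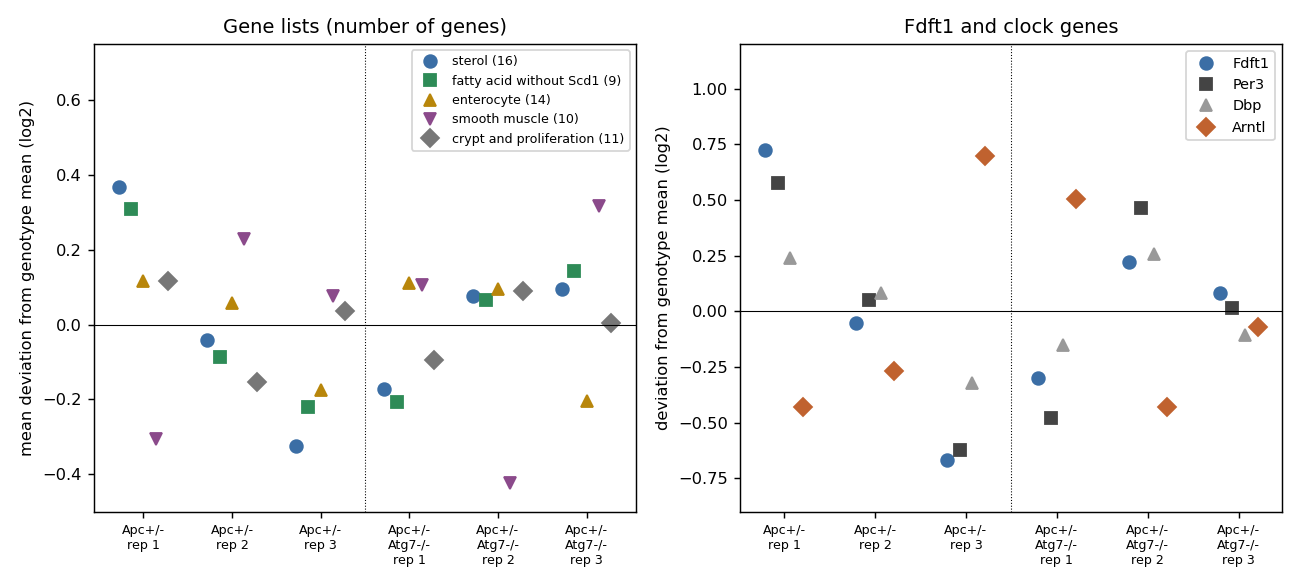
Left, mean deviation of each array (horizontal axis) from the mean of its genotype (vertical axis, log2) for the sterol and fatty acid genes and 3 marker lists. Right, the same deviation for Fdft1 and the clock genes Per3, Dbp and Arntl. These clock genes were chosen after their values were seen, because they varied along with the sterol genes, and the others are not shown. Fdft1 and Per3 are high in Apc+/- replicate 1 and low in Apc+/- replicate 3 and Apc+/-Atg7-/- replicate 1, where Arntl is high.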

How the data were processed

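Per the labels' protocols, total RNA of 6 duodena was labelled as cDNA for Affymetrix arrays. The authors deposited log2 values for 28853 rows, made with RMA and Partek per the submitters' processing notes, which give no settings. The log base was taken from the span of the values (2.40 to 13.3). RMA commonly includes quantile normalization, which would remove a shift shared by all transcripts. Arrays carry no read depth, and 3 per genotype limit the precision. Detection calls and hybridisation batches were not used here.

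Rows with 1 symbol in the platform annotation (21789) gave 19938 genes. A linear model per gene (limma 3.58.1, R 4.3.3, moderated by eBayes, two-sided) gave the genotype difference, with Benjamini-Hochberg adjustment over all genes and 9.7 degrees of freedom. With 3 arrays a side, the smallest p that exact permutation allows is 0.1. Deviations are from the mean of the genotype, and the SD is pooled over both genotypes. The fit was tested on simulated data. Every array value is given for the 5 regulators, for the 6 sterol and 4 fatty acid members with the largest SD, and for the 2 of each with the smallest p. Of each related pathway list at most 4 genes with the largest SD or smallest p are named. The members and lists were chosen with earlier results of these data known.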

Additional observations from a re-analysis of the deposited data

How the results depend on the processing

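Of the 31 members, 0 passed under each of the other settings tried: the replicate number as a block, further quantile normalization, centring of arrays, trend and robust moderation, array weights, removal of genes with a mean under 5 or 6, the mean of a gene's rows, a threshold of 0.1 and leaving out each array. Over all genes, 22 calls became 44 with the replicate block and ran from 2 (without Apc+/-Atg7-/- replicate 1) to 27 with 1 array left out. They were 12, 13 and 12 without Apc+/- replicate 1, Apc+/- replicate 2 and Apc+/-Atg7-/- replicate 3. Whether arrays of equal replicate number belong together is not known. Their deviations correlated at 0.15, -0.074 and 0.24, and 3 of 6 arrays correlated best with their own number. With so few arrays these values cannot decide it. With 1 array left out, the sterol median ran from -0.035 to 0.29 and the fatty acid median from 0.051 to 0.23. The ranges of single genes that changed sign were -0.14 to 0.55 for Fdft1, -0.062 to 0.39 for Hmgcs1, -0.015 to 0.64 for Idi1, -0.15 to 0.28 for Lss, -0.073 to 0.52 for Sqle, -0.71 to 0.36 for Scd1, -0.33 to 0.36 for Insig1, -0.15 to 0.063 for Insig2, -0.099 to 0.044 for Scap, -0.088 to 0.076 for Srebf1 and -0.032 to 0.092 for Srebf2. Centring of arrays turned Insig1, Scap and Srebf1 to 0.028, 0.0063 and 0.017, and array weights turned Insig1 to 0.22. Array weights also moved the sterol median from 0.12 to 0.26 and Scd2 from 0.57 to 1.02. The weights of Apc+/- replicates 1, 2 and 3 were 0.42, 0.90 and 1.49. The weighted Apc+/- mean thus leaned on replicate 3, where Scd2 and most sterol members were lowest, and away from replicate 1. The order of Apc+/- arrays held for 13 of 16 sterol members after quantile normalization. The alternatives for the within-genotype SD were chosen after seeing the data, and its median percentile ran from 86.9 to 97.4 over them.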
